A study of Homo sapiens with 4 samples.

Results

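The mitochondrial ribosomal protein genes were examined in HEK293T cells edited to knock out MORC2 and in WT cells. They were taken as every protein-coding gene with an MRPL or MRPS symbol followed by a number, and 77 of the 28775 genes counted met this rule, 49 with an MRPL and 28 with an MRPS symbol. All 77 passed the filter on low counts and were among the 16675 genes tested. The genes lay on 21 chromosomes, and none of them had a single exon.

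Mitochondria keep their own ribosome, which translates the few proteins encoded by mitochondrial DNA, all of them parts of the respiratory chain and ATP synthase. Its RNA comes from the mitochondrial genome, whereas every protein is encoded in the nucleus, made in the cytosol and imported. Many of these proteins descend from bacterial ribosomal proteins, and others were added during the evolution of mitochondria. The large subunit joins amino acids and the small subunit reads the messenger RNA.

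MORC2 is an ATPase that acts with the HUSH complex in silencing of transposons and some genes, and the RNA-seq asked which transcripts differ when it is lost. HEK293T is a human embryonic kidney line that carries the SV40 large T antigen. The 2 MORC2 KO samples carried different gRNAs, gRNA 1 in replicate 1 and gRNA 2 in replicate 2, delivered with Cas9 protein and kept as bulk cultures, and the 2 WT samples were independent replicates of the line. Whether the WT cells were electroporated too is not given in the sources used here. Each KO replicate was thus also the sole sample of its gRNA, and the gRNA and the replicate cannot be told apart. The labels give no batch for any sample, so the spread between replicates may be partly technical.

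Polyadenylated RNA was counted as read pairs per gene, and the counts summed to between 53970043 and 64312514 per sample. MORC2 itself stood at 51.2 and 55.0 CPM (counts scaled to the library total, with TMM factors) in KO and at 86.2 and 87.7 CPM in WT, a log2 fold change of -0.71 ± 0.06 (SE, adjusted p = 0.000137). The edited transcript can remain in cells with a frameshift, so its level does not give the share of edited cells. The paper measured the knockout by western blot. Of the exonic bases of MORC2, 23.3% also belong to MORC2-AS1 on the opposite strand, and read pairs that fit both were not counted. The 7 marker genes of this cell line summed to between 39301 and 47877 counts per sample and included neurofilament genes. Most of that sum was VIM, with 30597 to 36603 counts per sample, whereas PAX2 had 69 to 106 and LHX1 27 to 64. The 8 markers of blood, liver, endothelial, muscle, skin and lung cells summed to between 14 and 25.

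No mitochondrial ribosomal protein gene was called different between MORC2 KO and WT, with 0 of 77 at an adjusted p under 0.05 in either direction by edgeR's quasi-likelihood test. Over all 16675 genes, 0.03% were called lower and 0.588% higher. The log2 fold changes of the 77 genes were nevertheless nearly all on one side of 0. They were negative for 74 genes, or 96.1%, against 48.5% of all genes tested, and ranged from -0.31 for MRPS24 to 0.01 for MRPS31. Their median was -0.14, which is 90.5% of the WT level, whereas the median of all genes tested was 0.01. Without adjustment, 33 of the 77 genes had a p under 0.05 with a lower level in KO, a share of 42.9% against 6.17% of all genes, and 0 had one with a higher level, against 8.14% of all genes. These genes share libraries and are not independent, so the counts describe the list and are not a test of it.

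**Figure D1:**
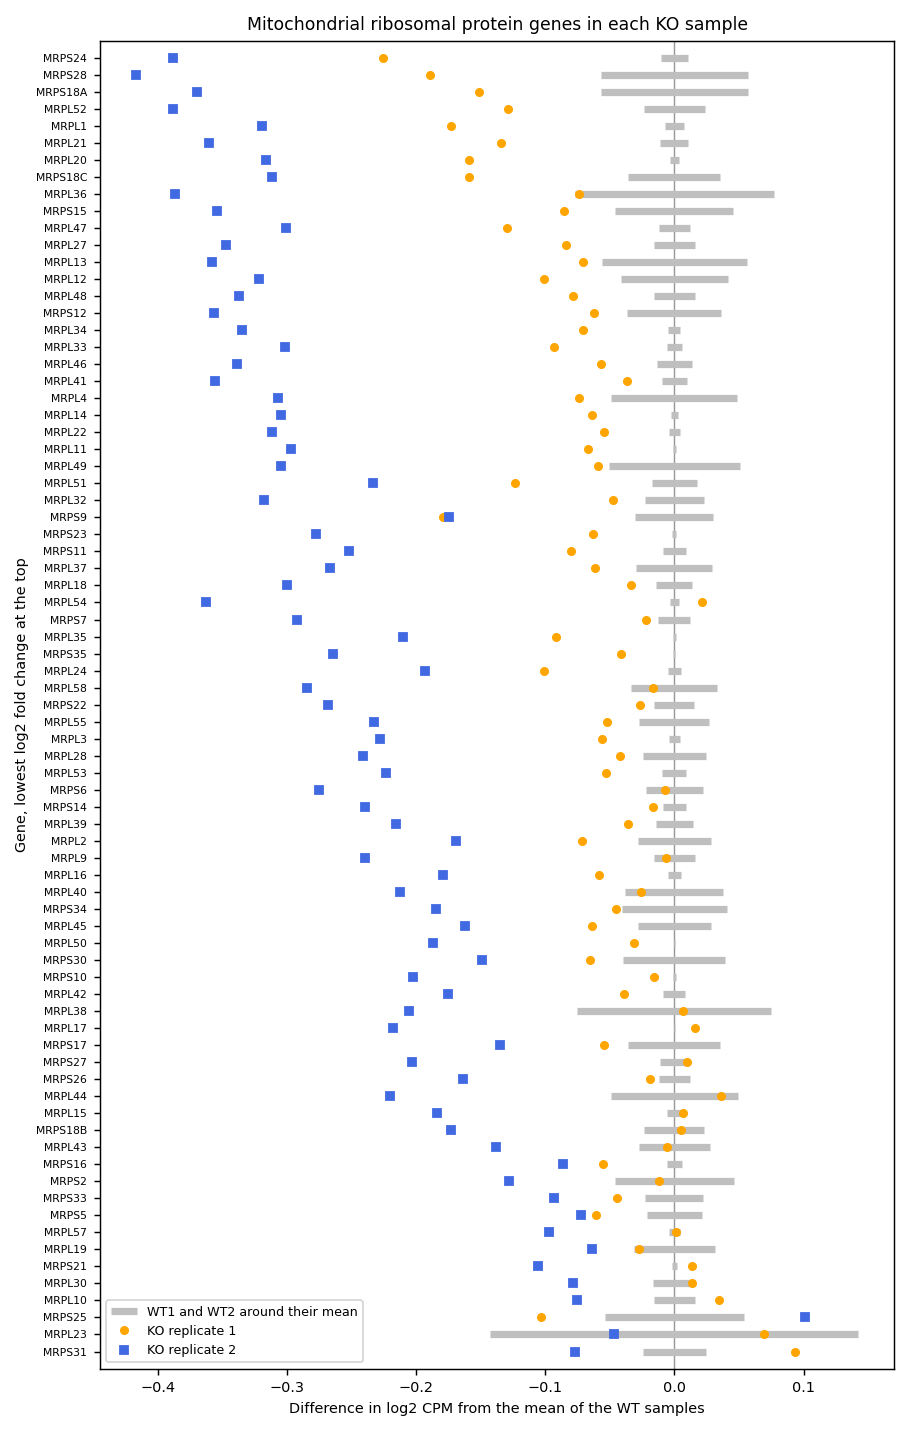
The horizontal axis gives the difference in log2 CPM of each MORC2 KO sample from the mean of the 2 WT samples, and each row is 1 of the 77 genes, ordered by log2 fold change. Circles are KO replicate 1, squares are KO replicate 2, and the grey bar spans the 2 WT samples. The squares lie left of the circles for 75 of the 77 genes.

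The KO replicates were not alike for these genes. KO replicate 1 had a median difference of -0.05 in log2 CPM from the WT mean and was below it for 64 genes. KO replicate 2 had a median difference of -0.24 and was below the WT mean for 76 genes. The WT samples differed from each other by a median of -0.01. KO replicate 2 was also below KO replicate 1 for 75 of the 77 genes, or 97.4%, against 49.2% of all genes. Both KO samples lay below both WT samples for 55 genes, or 71.4%, against 23.4% of all genes, and both lay above for 0 genes, against 24.1%. KO replicate 1 was below both WT samples for 56 genes and above both for 6, against 35.1% of all genes in each direction. KO replicate 2 was below both for 75 and above both for 1, against 39.4% and 42.5% of all genes.

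How many of the 77 genes were called thus depended on which KO sample was used. Without KO replicate 1, 62 genes were called lower and 0 higher, with a median log2 fold change of -0.25, and in that fit 12.4% of all genes were called lower and 8.16% higher. Without KO replicate 2, 0 genes were called in either direction, where 0.177% of all genes were called lower and 0.838% higher. The median was then -0.05, and 64 genes were negative, against 49.8% of all genes. In these fits without a KO replicate, KO was represented by 1 sample, whose spread was assumed to be that of the WT samples, so the calls compare that culture with WT and not the genotype. KO replicate 2 also had the most counts of the 4 samples, and the part of depth or of the gRNA in its lower values was not tested. With all 4 samples but without the filter on low counts, which adds genes of few reads to the test, 9 of the 77 were called lower and 0 higher, against 0.801% and 2.04% of all genes.

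The summed level of the 77 genes followed the same order. Together they took 0.595% of the counts in KO replicate 1, 0.541% in KO replicate 2, and 0.603% and 0.611% in the WT samples. KO replicate 1 was therefore close to the WT samples and KO replicate 2 was lower. The mean was 0.568% ± 0.038 in KO and 0.607% ± 0.00586 in WT (SD, n = 2 each, exact permutation p = 0.333, two-sided, which is the smallest this design allows). In CPM with TMM factors, a different scale from the share of counts, the 77 genes summed to 91.1% of their WT level. On that scale the large subunit genes summed to 90.4% and the small subunit genes to 92.3%. KO replicate 1 gave 96.4% and 97.1%, and KO replicate 2 gave 84.5% and 87.6%.

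The gene with the lowest fold change and the smallest p was MRPS24, a small subunit protein whose bacterial counterpart lies at the entry of the mRNA channel. It lies on chromosome 7 from 44024848 to 44027808 on T2T-CHM13v2.0 and has 4 exons. It was counted at 21.6 and 19.3 CPM in KO replicates 1 and 2, and at 25.1 and 25.4 CPM in WT replicates 1 and 2, the order in which values are given throughout. The groups did not overlap, and the log2 fold change was -0.31 ± 0.07 (SE, unadjusted p = 0.00142, adjusted p = 0.118 by edgeR). Of its exonic bases, 90.9% also belong to URGCP-MRPS24, a readthrough gene on the same strand, and read pairs that fit both genes were not counted. Its counts therefore came from a small stretch of the transcript. MRPS28, also of the small subunit, followed with 14.7 and 12.5 CPM in KO and 16.1 and 17.4 CPM in WT (log2 fold change -0.30 ± 0.09, adjusted p = 0.205). It shares 73.3% of its exonic bases with the readthrough gene TPD52-MRPS28, and so its value too rests on a part of the gene.

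Among genes that overlap no other gene, MRPL52 and MRPL1 of the large subunit had the lowest fold changes. MRPL52, a protein without a bacterial counterpart, was at 67.1 and 56.0 CPM in KO and at 74.5 and 72.1 CPM in WT, a log2 fold change of -0.25 ± 0.08 (adjusted p = 0.200). MRPL1 is the protein of the flexible stalk that guides tRNA out of the ribosome. It was at 44.9 and 40.5 CPM in KO and at 50.3 and 50.8 CPM in WT, which gave -0.25 ± 0.06 (adjusted p = 0.147). In both genes every KO value was below every WT value. MRPL21 (-0.24 ± 0.07, adjusted p = 0.192) and MRPL20 (-0.24 ± 0.06, adjusted p = 0.161) came next. Both bind the large subunit RNA, and 13.2% of the exonic bases of MRPL20 are shared with its antisense gene.

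At the other end, MRPS31, MRPL23 and MRPS25 were the 3 genes above 0. MRPS31 of the small subunit was at 40.6 and 36.1 CPM in KO and at 38.7 and 37.4 CPM in WT (log2 fold change 0.01 ± 0.07, adjusted p = 0.965). MRPL23, which sits beside the exit of the peptide tunnel, was at 59.8 and 55.1 CPM in KO and at 62.9 and 51.6 CPM in WT (0.0039 ± 0.084, adjusted p = 0.987). MRPS25 was at 84.0 and 96.7 CPM in KO and at 93.6 and 86.9 CPM in WT (0.0018 ± 0.072, adjusted p = 0.993). The groups overlapped in all 3, and MRPS25 alone of the 77 genes was higher in KO replicate 2 than in both WT samples. MRPL10 and MRPL30 followed at -0.02 and -0.03.

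The promoters are shown for the genes at both ends of this order, MRPS24 and MRPS31, for MRPL52, whose promoter holds letters of 2 factors, and for MRPL46 and MRPS11, which start head to head. RefSeq promoter windows on GRCh38.p14 run from 250 bases before to 50 bases after the start, and 69 of the 77 genes had one. Sets of letters known from factors that act at genes for mitochondrial proteins were searched on both strands, GATGGCG for YY1, CCGGAAG for ETS factors such as GABPA, and GCGC, any base and TGCGC for NRF1. No match of one overlapped a match of another in these windows. The capitals mark these letters in either direction. MRPS24 is given at chr7:43869468-43869767 on the minus strand, MRPS31 at chr13:40771141-40771440 on the minus strand, MRPL52 at chr14:22829637-22829936 on the plus strand, MRPL46 at chr15:88467339-88467638 on the minus strand and MRPS11 at chr15:88467458-88467757 on the plus strand.
MRPS24: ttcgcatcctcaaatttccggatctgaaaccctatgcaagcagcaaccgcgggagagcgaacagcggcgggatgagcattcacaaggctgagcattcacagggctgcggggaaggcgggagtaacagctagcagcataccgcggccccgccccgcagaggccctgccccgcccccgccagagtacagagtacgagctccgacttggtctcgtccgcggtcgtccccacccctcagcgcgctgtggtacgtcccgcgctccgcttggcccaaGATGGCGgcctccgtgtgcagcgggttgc
MRPS31: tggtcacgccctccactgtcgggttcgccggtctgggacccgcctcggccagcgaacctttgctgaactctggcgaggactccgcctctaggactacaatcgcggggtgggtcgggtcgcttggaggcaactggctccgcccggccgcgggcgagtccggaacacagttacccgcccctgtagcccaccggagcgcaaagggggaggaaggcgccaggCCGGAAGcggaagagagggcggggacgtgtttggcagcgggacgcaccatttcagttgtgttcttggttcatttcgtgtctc
MRPL52: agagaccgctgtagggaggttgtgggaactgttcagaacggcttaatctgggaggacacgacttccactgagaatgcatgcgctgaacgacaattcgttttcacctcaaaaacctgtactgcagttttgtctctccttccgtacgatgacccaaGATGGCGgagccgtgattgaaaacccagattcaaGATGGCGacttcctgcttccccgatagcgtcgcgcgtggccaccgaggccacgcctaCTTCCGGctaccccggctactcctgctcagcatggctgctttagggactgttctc
MRPL46: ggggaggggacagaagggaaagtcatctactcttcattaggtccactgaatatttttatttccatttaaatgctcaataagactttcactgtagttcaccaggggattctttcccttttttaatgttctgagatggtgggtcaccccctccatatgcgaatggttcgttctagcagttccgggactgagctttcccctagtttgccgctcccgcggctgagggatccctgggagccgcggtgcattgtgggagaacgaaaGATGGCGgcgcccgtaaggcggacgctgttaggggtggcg
MRPS11: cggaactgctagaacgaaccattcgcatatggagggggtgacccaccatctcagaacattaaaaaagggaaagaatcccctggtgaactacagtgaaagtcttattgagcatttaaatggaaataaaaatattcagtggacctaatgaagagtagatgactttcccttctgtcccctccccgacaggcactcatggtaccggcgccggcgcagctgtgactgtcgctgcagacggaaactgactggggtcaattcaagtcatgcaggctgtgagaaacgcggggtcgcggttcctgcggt

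The YY1 letters began at base 22 of the MRPS24 transcript and at base 11 of that of MRPL46, and they contain the letters of a start codon. The ETS letters of MRPS31 began 32 bases before the start. The MRPL52 window held the YY1 letters in more than 1 place and the ETS letters on the other strand from 5 bases before the start, and the MRPS11 window held none of the 3. Over the 69 promoters, 16 held the YY1 letters, or 23.2% against 7.01% of the 12805 promoters of tested genes and 4.35% of all 27305 promoters. The ETS letters stood in 29 promoters, or 42.0% against 17.6% of tested genes and 10.7% of all. The NRF1 letters stood in 8, or 11.6%, which is close to the 11.03% of tested genes, against 6.28% of all. At least 1 of the 3 was present in 46 promoters, which is 66.7% against 31.0% of tested genes and 18.8% of all. The median log2 fold change was -0.12 for the genes with the YY1 letters and -0.15 for those without. It was -0.14 with and -0.15 without the ETS letters, and -0.10 with and -0.15 without the NRF1 letters. Genes at both ends of the order of fold changes thus held such letters, and a match says only that the letters are there.

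Many of these genes share a start region with another gene. A gene on the opposite strand began within 1000 bases upstream for 25 of the 77, or 32.5%, against 18.2% of the 14137 protein-coding genes tested. MRPL46 and MRPS11, of the large and the small subunit, begin 320 bases apart on chromosome 15. MRPL46 was at 32.7 and 26.9 CPM in KO and at 33.7 and 34.4 CPM in WT (log2 fold change -0.19 ± 0.08, adjusted p = 0.328), and MRPS11 was at 47.9 and 42.5 CPM in KO and at 50.3 and 50.9 CPM in WT (-0.16 ± 0.07, adjusted p = 0.307). The KO samples were below the WT samples in both genes. Of the other neighbours, 23 are not in the list and all 23 were tested. Their median log2 fold change was 0.0027, and none was called (smallest adjusted p = 0.174). Of the 23, 11 were negative, where 48.5% of all genes tested were. MRPL49 and its neighbour FAU, a cytosolic ribosomal protein gene, both had -0.18. MRPL47 had -0.21 where its neighbour NDUFB5, a complex I gene, had 0.0027, and MRPL27 had -0.21 where EME1, a DNA repair gene, had 0.09. These pairs were chosen after their values were seen, and the length and abundance of the neighbours were not compared.

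By subunit, the 51 genes for large subunit proteins had a median log2 fold change of -0.15 and the 26 for small subunit proteins had -0.12. MRPS30 and MRPS18A were placed in the large subunit, where their proteins lie. The 29 large subunit genes with a bacterial counterpart had a median of -0.18, and 17 of them had an unadjusted p under 0.05 in the lower direction. Over all genes tested, 6.17% had such a p. The 20 large subunit genes found in mitochondria alone had -0.13, with 7 such genes. The small subunit genes gave -0.14 over 15 with a bacterial counterpart, 6 of them with such a p, and -0.09 over 10 without, 1 of them with such a p. MRPS18B, a paralog of bacterial S18 with the systematic name mS40, was counted among those without a counterpart. The remaining 3 genes, MRPS28, MRPS18A and MRPL55, were not classified, although RefSeq lists for MRPL55 the name bL31m, a form used for proteins with a bacterial counterpart. These classes differ in length as well, and the differences between them were not tested.

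Some genes are given for the known place of their proteins in the ribosome, and most of these were chosen after their values were seen. MRPL12, which recruits translation factors from the stalk of the large subunit, was at 143 and 123 CPM in KO and at 149 and 158 CPM in WT (log2 fold change -0.21 ± 0.07, adjusted p = 0.255). MRPL10, the base of that stalk, had -0.02 ± 0.06 (adjusted p = 0.914). MRPS12, of the decoding centre of the small subunit, was at 49.7 and 40.5 CPM in KO and at 50.6 and 53.2 CPM in WT (-0.20 ± 0.08, adjusted p = 0.308). MRPL27, near the site of peptide bond formation, had -0.21 ± 0.08 (adjusted p = 0.277), and MRPL58, which frees stalled ribosomes by peptidyl-tRNA hydrolysis, had -0.15 ± 0.08 (adjusted p = 0.431). The differences between these genes were not tested.

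The 3 paralogs of bacterial S18 also differed in their estimates. MRPS18A, the copy in the large subunit, was at 27.7 and 23.8 CPM in KO and at 29.5 and 32.0 CPM in WT (-0.26 ± 0.08, adjusted p = 0.211). MRPS18C was at 24.6 and 22.2 CPM in KO and at 26.8 and 28.2 CPM in WT (-0.23 ± 0.07, adjusted p = 0.211). In these 2 the groups did not overlap. MRPS18B was at 88.7 and 78.4 CPM in KO and at 86.9 and 89.8 CPM in WT (-0.08 ± 0.07, adjusted p = 0.593), and there the groups overlapped. MRPS18A shares 60.6% of its exonic bases with RSPH9 and MRPS18C 83.6% with ABRAXAS1, both on the opposite strand, whereas MRPS18B shares none.

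Over 10% of the exonic bases were shared with another gene in 15 of the 77. Besides the genes above these were MRPL34, MRPS9, MRPS7, MRPS6, MRPL9, MRPS34, MRPL43, MRPS2, MRPS25 and MRPL23. The 15 had a median log2 fold change of -0.15 and the other 62 genes -0.14. Of these, MRPS9 was the gene in which the KO replicates were most alike, at 59.7 and 59.9 CPM against 69.0 and 66.2 CPM in WT (-0.18 ± 0.06, adjusted p = 0.226). Pseudogenes of 3 of the 77 genes were counted separately. MRPL42P5 had at most 8 counts per sample, MRPL45P2 between 118 and 153 and MRPS31P5 between 495 and 694, and since reads that map to several places were counted, MRPL42, MRPL45 and MRPS31 are less certain than the rest.

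Levels between genes were compared per kb of exonic length. The WT level spanned 21.7-fold, and the middle of the list lay between 25.6 and 62.7 CPM per kb. MRPL37 of the large subunit was highest at 191 and 166 CPM per kb in KO and 195 and 203 in WT. MRPL3, next to the site of peptide bond formation, and MRPL12 followed at 157 and 152 CPM per kb in WT. MRPS33, MRPL23 and MRPL42 were lowest at 9.18, 9.92 and 10.1 CPM per kb in WT, with MRPS11 next at 10.2. The WT samples of MRPL23 lay at 10.9 and 8.94 CPM per kb and so spanned both MRPS33 and MRPL42. MRPL42 has 15670 exonic bases in RefSeq, the most of the 77, so a value per kb depends on which of its exons the cells use. For genes that share exons with another gene, the level per kb is too low. MRPS24 stood at 37.9 CPM per kb in WT over its whole length and at 414 over its unshared bases. The second value is not a corrected level, as it divides by few bases and a read pair can reach beyond them.

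**Figure D2:**
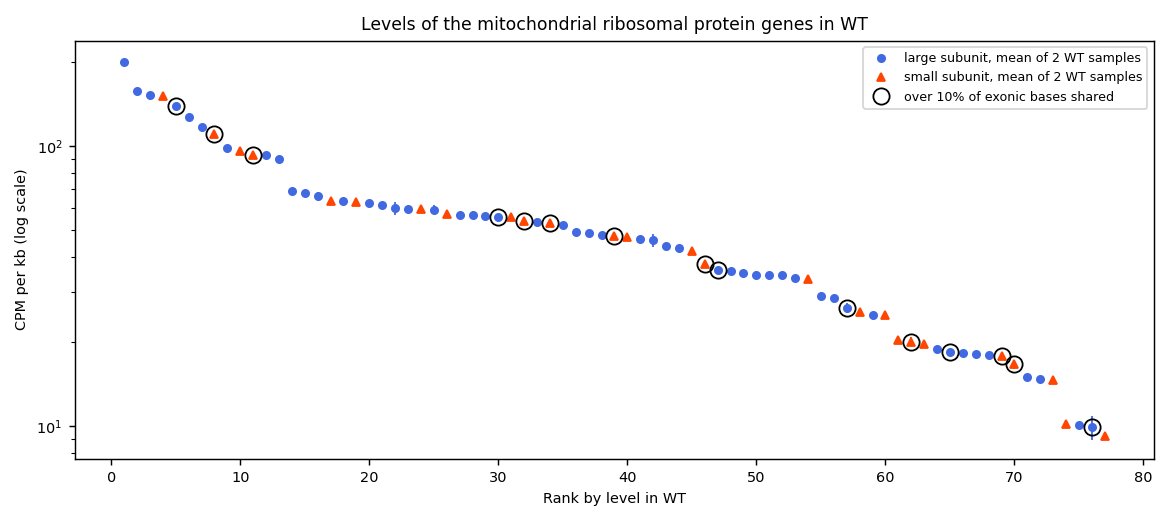
The vertical axis gives the WT level in CPM per kb of exonic length on a log scale, and the horizontal axis the rank of the 77 genes from the highest to the lowest. Points are means of 2 WT samples with bars from the lower to the higher of them (mostly smaller than the point). Rings mark the 15 genes with over 10% of exonic bases shared. The highest gene, MRPL37, is at 199 CPM per kb and the lowest, MRPS33, at 9.18.

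The genes are short and well expressed, and the fold changes were related to both measures. Of the 77 genes, 67 were shorter than the median gene tested and 76 were more abundant than the median. Across the 77 genes the log2 fold change correlated with log2 exonic length with a Pearson r of 0.53 and a Spearman rho of 0.54. Across all 16675 genes r was 0.02 and rho 0.08, and there length also rose with mean log2 CPM (r = 0.29). Among the 77, the shorter genes had the lower values. MRPL53, MRPL33 and MRPL41, the 3 shortest at 496, 508 and 582 bases, had log2 fold changes of -0.14, -0.19 and -0.19. MRPL42, MRPL19 and MRPL23, the 3 longest, had -0.11, -0.05 and 0.0039. The correlation was stronger in KO replicate 2 (r = 0.57) than in KO replicate 1 (r = 0.27), and between the 2 WT samples it was 0.33. With mean log2 CPM, r was 0.29 across the 77 genes and -0.27 across all genes. These correlations are across genes that share the same 4 libraries and carry no p-value.

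**Figure D3:**
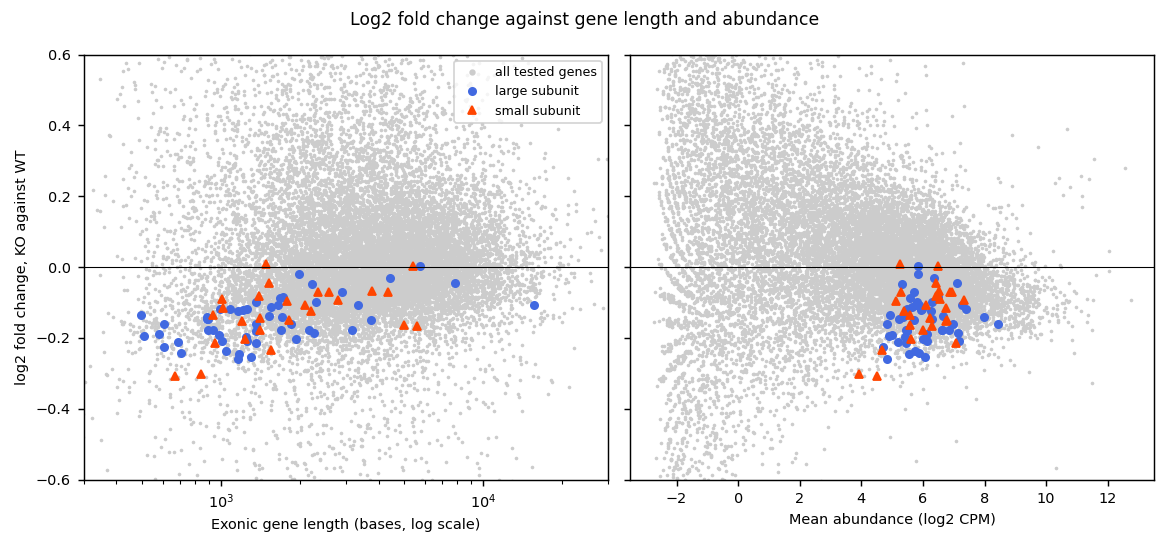
The vertical axis gives the log2 fold change of MORC2 KO against WT, against exonic length in bases (left, log scale) and mean log2 CPM (right). Grey points are all 16675 genes tested, circles large subunit and triangles small subunit genes, and genes beyond 0.6 in either direction or outside the length range lie outside the panels. The 77 genes sit in the short and abundant part of the plot, from -0.31 to 0.01.

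Tested genes within the abundance range of the 77 also had negative medians up to 4 kb of length. That range was wide, from 3.93 to 8.45 in mean log2 CPM, and abundance was not matched within it. The 18 genes under 1 kb had a median log2 fold change of -0.18, the 37 of 1 to 2 kb had -0.14, the 14 of 2 to 4 kb had -0.10 and the 8 over 4 kb had -0.06. Over all tested genes within the abundance range of the 77, the list included, the medians were -0.15, -0.08, -0.03 and 0.0071 in the same order of length. The list was thus lower than these genes in each band, by the least under 1 kb. There, 66.7% of the list and 47.4% of the 270 genes in that range had an unadjusted p under 0.05 with a lower level in KO. Bands with fewer than 20 genes of the list are thin, which holds for all but that of 1 to 2 kb.

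**Figure D4:**
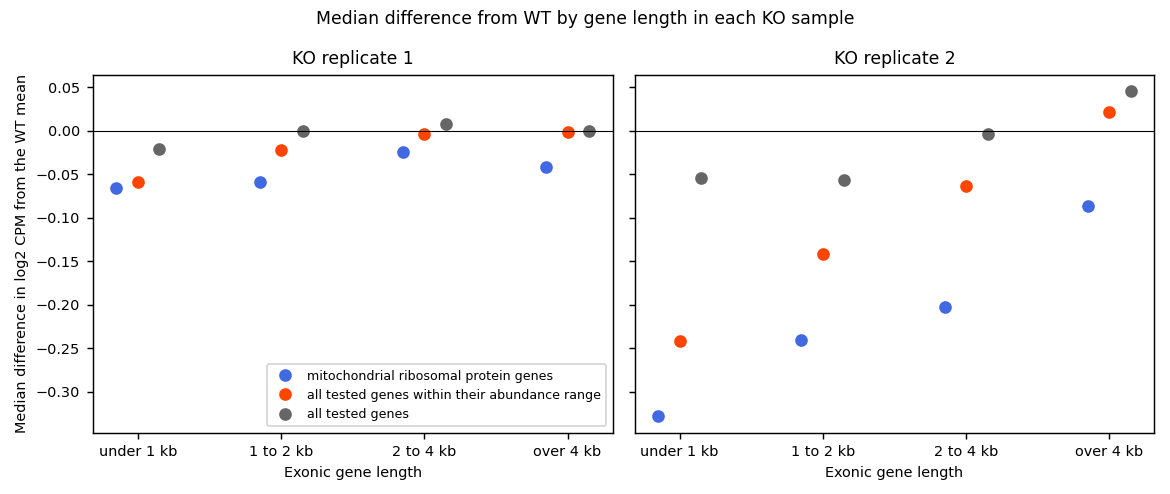
The vertical axis gives the median difference in log2 CPM from the mean of the WT samples, and the horizontal axis 4 bands of exonic length, for KO replicate 1 (left) and KO replicate 2 (right). Blue points are the 77 genes, orange points all tested genes within their abundance range, and grey points all tested genes. In KO replicate 2 the blue points go from -0.33 under 1 kb to -0.09 over 4 kb, and in KO replicate 1 they lie between -0.07 and -0.02.

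When the trend of each library on abundance and length was removed with joint offsets, the median log2 fold change of the 77 genes went from -0.14 to -0.06, or 96.2% of the WT level. There were still 69 genes below 0, or 89.6% against 50.6% of all genes, and 15 with an unadjusted p under 0.05 in the lower direction, or 19.5% against 6.83%. None was called (0 of 77), against 0.216% of all genes called lower and 1.13% higher. MRPS28, MRPS24, MRPS18C and MRPS18A had the lowest values in this fit, at -0.24, -0.21, -0.20 and -0.19, and each of them shares over 60% of its exonic bases with another gene. Abundance offsets alone gave a median of -0.12 and length offsets alone -0.12. With the joint offsets and without KO replicate 1, 32 genes were called lower and 0 higher, against 7.40% and 8.94% of all genes. The median was then -0.11. With the joint offsets and without KO replicate 2 it was -0.04, and 55 of the 77 genes were below 0, against 50.7% of all genes. The choice to leave out samples under joint offsets was made after the data were seen.

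**Figure D5:**
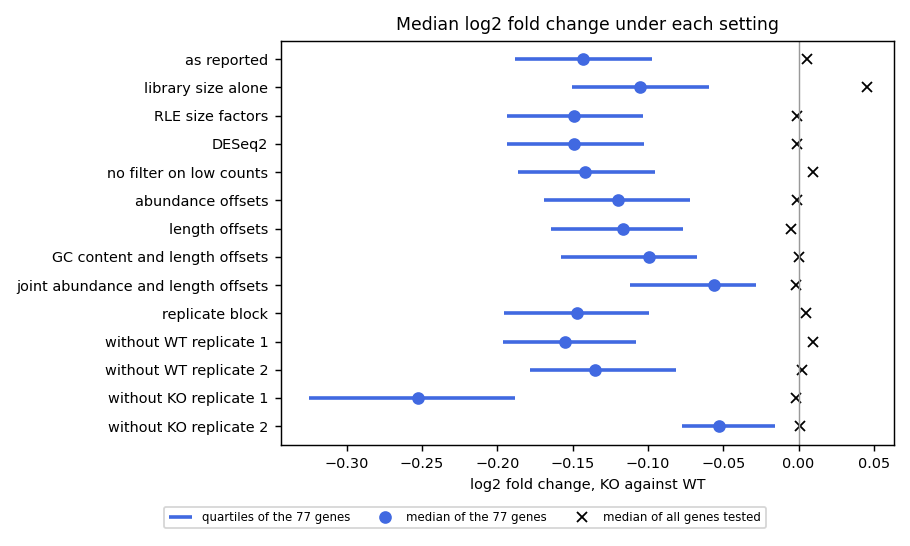
The horizontal axis gives the log2 fold change of MORC2 KO against WT, with 1 row for each way of computing it. Points are the median of the 77 genes, bars run from the lower to the upper quartile, and crosses are the median of all genes tested. The median of the 77 genes lies below that of all genes in every row, at -0.25 without KO replicate 1 and at -0.05 without KO replicate 2.

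Other genes of mitochondrial translation were compared with the 77. A further 5 ribosomal subunits carry other symbols, and their median log2 fold change was -0.22. Of these, 5 of 5 were negative, against 48.5% of all genes, and 0 were called. AURKAIP1, of the small subunit, was at 69.4 and 63.0 CPM in KO and at 76.5 and 79.8 CPM in WT (-0.24 ± 0.06, adjusted p = 0.153). GADD45GIP1, of the large subunit, was at 113 and 94.5 CPM in KO and at 118 and 122 CPM in WT (-0.22 ± 0.08, adjusted p = 0.254). CHCHD1 had -0.23 (adjusted p = 0.308). PTCD3 and DAP3, whose proteins bind RNA and GTP, had -0.05 and -0.04, and in both the KO samples overlapped the WT samples. The subunits with other symbols thus covered a range close to that of the MRPL and MRPS genes.

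Over 27 genes for assembly and rRNA modification the median was -0.04, with 22 negative, or 81.5% against 48.5% of all genes, and 0 called. An unadjusted p under 0.05 in the lower direction was found for 2 of them, where 6.17% of all genes had one. These 2 were RCC1L, an assembly factor (-0.16 ± 0.06, adjusted p = 0.256), and MRM3, which methylates the large rRNA (-0.17 ± 0.06, adjusted p = 0.268). Over 16 translation factors the median was also -0.04, with 12 negative, or 75% against 48.5% of all genes, and 0 called. Genes of these lists are longer, with medians of 2468 and 2952 exonic bases against 1410 for the 77, and with the joint offsets their medians were -0.03 and -0.01 against -0.06. The differences between the lists were not tested. TUFM, the elongation factor that brings tRNA, had -0.15 ± 0.06 (adjusted p = 0.313). HEMK1, which methylates release factors, was at 47.2 and 57.2 CPM in KO and at 44.5 and 43.3 CPM in WT, a log2 fold change of 0.25 ± 0.08 (adjusted p = 0.225). Its exonic length is 17357 bases, more than that of any of the 77 genes.

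The ribosomal protein genes of the cytosol, 77 as well, had a median log2 fold change of -0.14. Of these, 76 were negative, or 98.7% against 48.5% of all genes, and 0 were called. With the joint abundance and length offsets their median was -0.00078, where that of the mitochondrial ribosomal protein genes was -0.06. The offsets were fitted on all genes tested, both lists included, so neither median is independent of them. The cytosolic genes were also more abundant, with a median of 9.07 in mean log2 CPM against 5.94. The difference between the lists was not tested.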

How the data were processed

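Polyadenylated RNA of 4 HEK293T samples was sequenced as 65 bp paired-end reads after TruSeq preparation. The authors aligned reads to T2T-CHM13v2.0 with subread 2.0.6 and deposited raw featureCounts counts, in read pairs, of 28775 RefSeq genes. Their command counted multi-mapping reads, ignored strand and assigned no pair that overlaps several genes. Columns of other samples numbered 0. Symbols came from RefSeq on GRCh38.p14 (28763 matched), gene coordinates and lengths from the deposited table, and promoters from RefSeq on GRCh38.p14. No coordinates were converted.

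Genotypes were compared with edgeR 4.0.16 (R 4.3.3, limma 3.58.1; legacy setting, as the study used version 3.42.4). Genes were filtered with filterByExpr, libraries scaled by TMM, and p-values of the quasi-likelihood test adjusted by Benjamini-Hochberg over all 16675 genes, with 0.05 as the threshold. Standard errors are the absolute log2 fold change over the root of F. The biological coefficient of variation was 5.33%. Counts per member and sample ran from 829 to 21462, so replicate spread and not depth limits precision. Alternatives were DESeq2 1.42.0, other scalings and filters, loess offsets (span 0.3), a replicate block and leaving out samples. GC content was found for 90.9% of tested genes. Scripts were tested on simulated data.

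The members and lists were chosen with earlier results of these data known. Genes named are MORC2, the 8 smallest p, the 5 lowest and 5 highest fold changes, the 3 extremes of level per kb and of length, the MRPS18 paralogs, members with over 10% shared exonic bases, and the 2 smallest p of each other list. MRPL46, MRPL47, MRPL49, the neighbouring genes, MRPS12, MRPL27, MRPL58, CHCHD1, PTCD3 and DAP3 were added after their values were seen. Roles come from textbook knowledge.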

Additional observations from a re-analysis of the deposited data

How the results depend on the processing

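The median log2 fold change of the mitochondrial ribosomal protein genes was negative under every setting run. Leaving out a sample gave between -0.25 and -0.05 without offsets. With joint offsets it gave between -0.11 (without KO replicate 1) and -0.04 (without KO replicate 2). The number called lower, 0 as reported, was between 0 and 62 when a sample was left out (62 without KO replicate 1), 9 without the filter on low counts, 1 (0.252% of all genes) with the replicate block, and between 0 and 32 with joint offsets and a sample left out (32 without KO replicate 1, added after the data were seen). The number called higher was 0 under each. The correlation with length was between 0.27 (without KO replicate 2) and 0.57 when a sample was left out, and 0.06 with the joint offsets, which are built to remove a trend on length. Of the values of single named genes under an alternative, 516 kept direction and side of the threshold, 41 passed it in addition and 28 changed sign. That tally leaves out the genes added to the text after their values were seen. In each fit without a sample, a genotype has 1 sample, assumed to vary like the rest.

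Over all genes, those called higher (98 as reported) were 463 without the filter, 208 with length offsets, 189 with joint offsets, 237 with the replicate block, 238 with the block and joint offsets, and between 88 and 1397 without a sample. Those called lower (5) were in the same order 182, 41, 36, 42, 47 and between 9 and 2117, and were 17 with DESeq2 and 15 at an adjusted p under 0.1.

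The labels do not say that samples with the same replicate number are paired. The deviations of same-numbered samples correlated at -0.12 over all genes and -0.29 over the 77. A block with the numbers crossed, a pairing the labels do not give either, was added after the data were seen. With it, 36 of the 77 genes were called lower and 0 higher. Over all genes, 809 or 4.85% were called lower and 903 or 5.42% higher. As the pairing is arbitrary and raised the calls over all genes too, no conclusion is drawn from these counts.

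Signs changed for genes near 0. By library size alone MRPL30 had 0.0068 and MRPL10 0.019. With joint offsets MRPL10 had 0.035, MRPL23 -0.0093, MRPS18B 0.015, MRPL9 0.00055 and MRPS2 0.00015, and with the replicate block as well 0.035, -0.0028, 0.015, 0.00017 and 0.00030. MRPS25 and MRPL23 had -0.0044 and -0.0018 with RLE factors, -0.025 and -0.020 with length offsets, and -0.0044 and -0.0012 with DESeq2, and MRPS25 had -0.00085 with the replicate block. Without a sample, MRPL30 ran from -0.092 to 0.015, MRPL10 from -0.088 to 0.036, MRPS25 from -0.10 to 0.086, MRPL23 from -0.13 to 0.15, MRPS31 from -0.091 to 0.094 and MRPS18B from -0.19 to 0.0068.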
